A study of Homo sapiens with 10 samples.

Results

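Keratins are the intermediate filament proteins of epithelial cells. Those of type I (KRT18, KRT19, KRT17 and KRT23 here) pair with those of type II (KRT8, KRT7, KRT5, KRT80 and KRT81), and a filament is built only from partners of both types. KRT8 and KRT18 are the standard pair of simple epithelia, KRT7 and KRT19 are added in ducts and in the lining from which many ovarian tumours are thought to arise, and KRT5 and KRT17 belong to basal and stratified epithelium. KRT7 is used in pathology to mark ovarian carcinoma.

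These 9 keratin genes were taken by gene name from the deposited transcript annotation. They are 9 of 57110 gene identifiers and 9 of the 65 genes there named KRT with a number and at most 1 letter. That number includes pseudogenes whose names end in P, such as KRT41P. The members hold 20 of the 99493 transcripts of the annotation, 17 of which reached 1 count in a library. RNA of 7 established human ovarian cancer cell lines was read on nanopore instruments, which sequence whole molecules, in a series made to benchmark the Isosceles transcript quantification package. COV362, COV504, OVKATE, OVMANA, OVTOKO and SK-OV-3 each had 1 library, run on a PromethION. IGROV-1 had 4 libraries, 2 from the PromethION and 2 from the smaller MinION, both numbered replicate 1 and 2. The labels name no treatment, genotype or culture condition for any group, and nothing says that the replicates came from separate cultures, so p-values measure the spread between these libraries only. A library held 1729782 to 3666224 counts. Levels are given in CPM, counts scaled to a fixed library total, and a count of 0 allows up to 3 counts, which is 0.818 to 1.73 CPM in a single library. Intervals and this limit cover counting error only.

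Some libraries stood apart in ways that touch the keratins. The epithelial adhesion molecule EPCAM reached 1814 CPM in OVMANA, 817 in OVKATE, 365 in COV504, 158 in COV362 and 45.6 in SK-OV-3, but 8.67 in OVTOKO and 0 to 1.54 in the IGROV-1 libraries, and CDH1, the epithelial cadherin, was at 0 in all 4 of the latter. CLDN7, another epithelial marker, did not follow this order. It was at 10.1 to 17.5 CPM in IGROV-1, above 5.09 in COV362 and 1.16 in OVTOKO, and at 19.2 to 226 in the other lines. Summed CPM over the 6 epithelial markers, which include KRT8 and KRT18, ran from 260 (IGROV-1 MinION replicate 1) to 8448 (COV504). The pan-leukocyte gene PTPRC was at most 0.445 CPM. The leukocyte sum of 363 to 1065 CPM came mainly from CD68, whose transcripts share a joined identifier with EIF4A1 and others. The endothelial sum was at most 27.6 CPM. The fibroblast sum was 364 CPM in SK-OV-3, 435 in COV362 and 120 in COV504 and at most 30.2 elsewhere. In COV362 it was nearly all 1 gene, COL1A2 (429 CPM). The mesothelial sum was 458 CPM in OVKATE, 253 in OVMANA and 87.0 in COV362 and at most 30.3 elsewhere. It came mainly from MSLN in these 3 lines, with 310, 207 and 83.1 CPM. The part of other cell types in the levels below was not tested. In RNA from whole cultures, fewer cells with a transcript and less of it per cell cannot be told apart. Mitochondrial ribosomal RNA took 9.13% and 10.9% of the IGROV-1 PromethION counts and 1.01% to 3.31% of the other libraries.

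The genes lie in the 2 human keratin clusters. On GRCh38 the type II genes are on chromosome 12: KRT80 at chr12:52168996-52192000 (minus strand), KRT7 at chr12:52232520-52252186 (plus), KRT81 at chr12:52285913-52291534 (minus), KRT5 at chr12:52514575-52520687 (minus) and KRT8 at chr12:52897187-52949954 (minus). KRT18 is the type I gene of this cluster, at chr12:52948871-52952901 on the plus strand, and its gene body overlaps the start of the annotated KRT8 gene by 1084 bp on the other strand. The remaining type I genes are on chromosome 17, KRT23 at chr17:40922696-40937634, KRT19 at chr17:41523617-41528308 and KRT17 at chr17:41619441-41624842, all on the minus strand.

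A few sets of sequences bear on how the counts can be read; all are exonic coding sequence from the GENCODE 29 transcripts, written 5′ to 3′ on the gene's strand. The first set is the point where the 2 KRT80 messages part. They share 1234 coding bases, of which the last 30 are shown in lower case, and capitals mark what follows the last splice junction. KRT80-201 uses an acceptor 35 bases further upstream and runs 35 bases to its stop codon, included here, while KRT80-202 continues for 125 bases, of which the first 35 are shown. The stretches span an intron, at chr12:52171523-52171687 and chr12:52171488-52171687.
KRT80-201: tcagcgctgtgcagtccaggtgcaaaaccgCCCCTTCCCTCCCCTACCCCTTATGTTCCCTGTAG
KRT80-202: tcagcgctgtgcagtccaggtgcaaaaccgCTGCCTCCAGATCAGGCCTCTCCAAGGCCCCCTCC
The second is the whole annotated coding part, 99 bases with the stop codon (all capitals), of KRT8-217, a 2437-base transcript counted under KRT8. This part spans chr12:52948804-52949726 on the minus strand. KRT8-217 shares 0 exonic bases with the main message KRT8-201, shares 190 with KRT8-216, and lies opposite 62 exonic bases of KRT18-201, and its coding part is no part of that of KRT8-201.
KRT8-217: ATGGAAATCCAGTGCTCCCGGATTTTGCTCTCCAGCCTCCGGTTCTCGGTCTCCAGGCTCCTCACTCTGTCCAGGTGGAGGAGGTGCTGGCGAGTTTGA
The third compares KRT81 with its near copies, the hair keratin genes KRT86 and KRT83. It is a 60-base window (coding bases 1249 to 1308 of KRT81), chosen as the gap-free one with the most differences between KRT81 and KRT86. Capitals mark the 14 bases at which KRT86 and the 7 at which KRT83 differ from KRT81. The windows cross exon junctions and span chr12:52286465-52286821, chr12:52308234-52308432 and chr12:52314790-52315342.
KRT81: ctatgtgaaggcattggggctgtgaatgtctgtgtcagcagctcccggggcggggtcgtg
KRT86: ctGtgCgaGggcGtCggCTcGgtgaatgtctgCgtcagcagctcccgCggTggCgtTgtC
KRT83: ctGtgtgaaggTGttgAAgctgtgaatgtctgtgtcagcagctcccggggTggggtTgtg
Over the whole coding sequence KRT81 was 89.6% identical to KRT86 and 89.3% to KRT83, so reads of these 3 genes could be split by the counting. Other members were further apart, with 66.8% for KRT7 and KRT8 and 67.6% for KRT17 and KRT19.

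Together the 9 genes took 0.0406% (IGROV-1 MinION replicate 1) to 0.937% (COV504) of a library's counts. Levels were high for 4 of them, KRT7, KRT8, KRT18 and KRT19, each above 1000 CPM in a line or library, and lower for the other 5. In CPM, which is not divided by length, KRT19 led in OVMANA (1833). KRT7 led in OVKATE (1693, beside 1506 for KRT19) and SK-OV-3 (363, beside 309 for KRT18). KRT18 led in OVTOKO (314), COV362 (570), COV504 (4627) and the 4 IGROV-1 libraries (244 to 1080). Per kilobase of transcript, KRT19 led in OVKATE instead (1083 CPM per kb, beside 965 for KRT7), and the other leaders were the same.

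**Figure D1:**
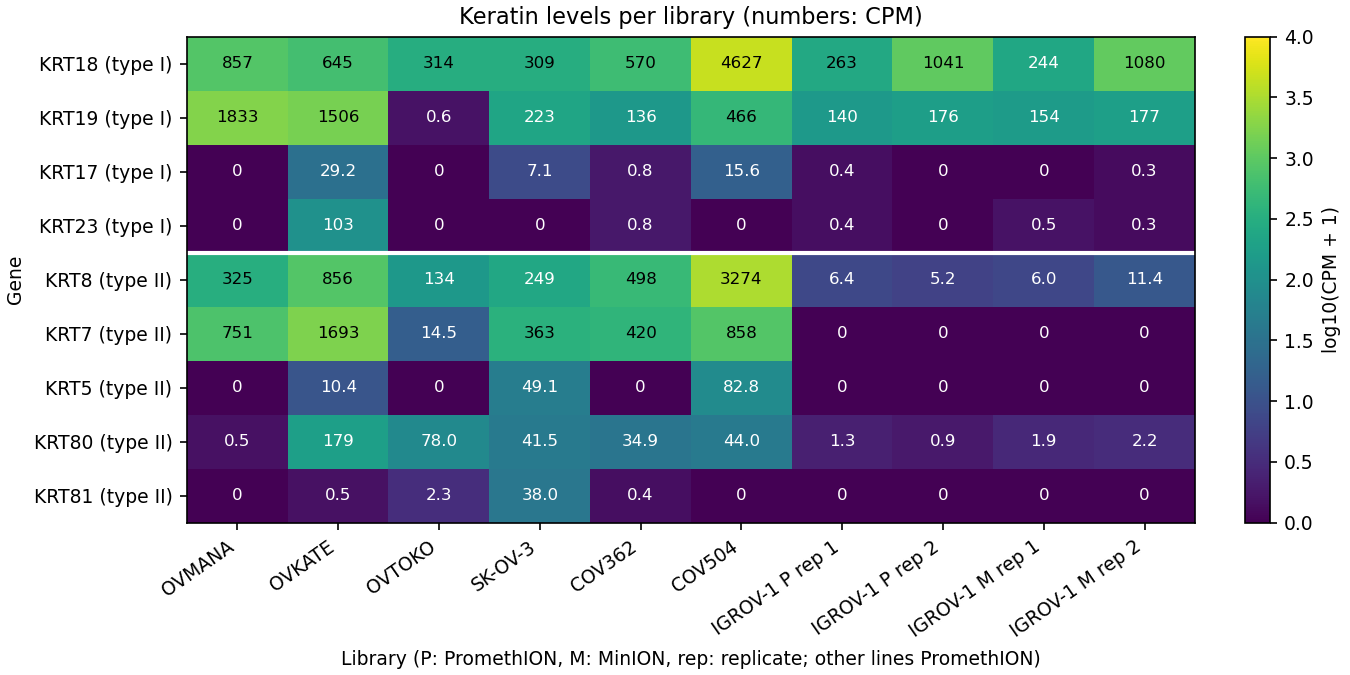
CPM of the 9 keratins (rows, type I above the white line and type II under it) in the 10 libraries (columns); colour is log10(CPM + 1) and the printed numbers are CPM. KRT7 is at 0 in all 4 IGROV-1 libraries, KRT19 is at 0.6 in OVTOKO, and COV504 holds the highest KRT8 and KRT18.

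KRT8, the simple-epithelial type II keratin, was at 3274 CPM in COV504, 856 in OVKATE, 498 in COV362, 325 in OVMANA, 249 in SK-OV-3 and 134 in OVTOKO. In IGROV-1 it was at 6.41 and 5.15 CPM on the PromethION and at 6.0 and 11.4 on the MinION. Every other line thus lay above every IGROV-1 library. Against the IGROV-1 PromethION mean of 5.78 ± 0.89 CPM (SD, n = 2), KRT8 was higher in all 6 lines, from a log2 difference of 4.6 (SE 0.29, adjusted p = 1.5e-05, edgeR) in OVTOKO to 9.05 (SE 0.27, adjusted p = 6.9e-07, edgeR) in COV504. Even the IGROV-1 remainder was largely KRT8-217, the transcript shown above, with 10, 6, 16 and 20 counts or 50.0% to 72.7% of the gene's counts. Without it, KRT8 in IGROV-1 was 2.36 ± 0.31 CPM on the PromethION (SD, n = 2), and the log2 differences ran from 5.37 (OVTOKO) to 10.33 (COV504), a setting chosen after seeing the data.

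KRT8-217 did not follow the rest of KRT8. It had 68 counts in OVTOKO, 56 in COV362, 34 in SK-OV-3, 28 in OVKATE, 16 in COV504 and 13 in OVMANA, so its level moved between 2.58 and 39.3 CPM over all 10 libraries while KRT8-201 moved between 0.283 and 2821. Its share of the KRT8 counts was 0.217% in COV504 (95% Wilson interval 0.134% to 0.353%) and 29.4% in OVTOKO (23.9% to 35.6%). Whether the counting used the strand is not given in the sources used here, and KRT8-217 faces KRT18 exons, so its source is uncertain. The same holds for part of KRT8-216, which lies opposite 135 exonic bases of KRT18-201, and KRT8-201 lies opposite 0. KRT8-201 held 55.9% to 86.2% of the counts in the 6 lines. KRT8-216, whose coding sequence of 1452 bases equals that of KRT8-201, held 12.6% to 20.9% there.

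**Figure D2:**
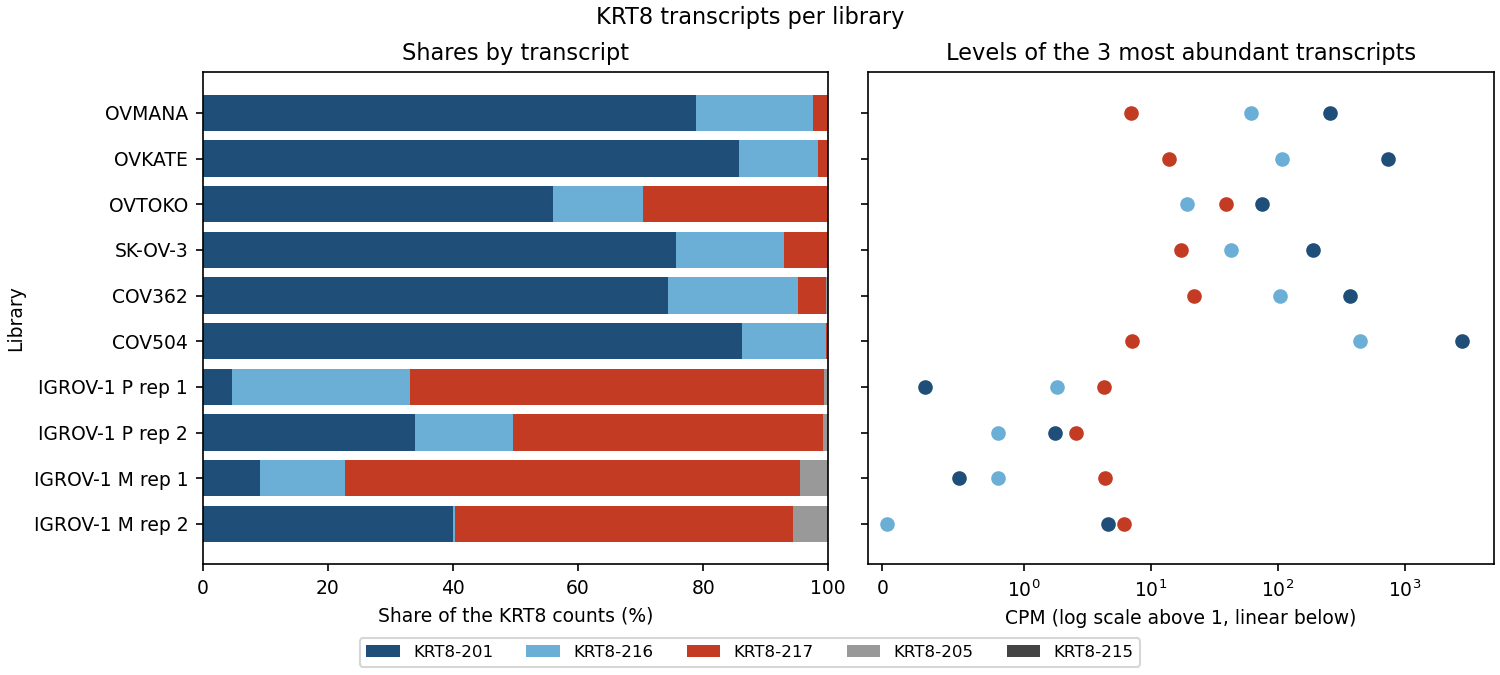
Left, share (%) of each library's KRT8 counts given to each of 5 transcripts; right, CPM of the 3 most abundant of them (log scale above 1, linear below). KRT8-217 holds 0.217% to 29.4% of the counts in the 6 other lines and 50.0% to 72.7% in IGROV-1, where KRT8-201 is at most 4.58 CPM.

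KRT18, the type I partner of KRT8, was at 4627 CPM in COV504, 857 in OVMANA, 645 in OVKATE, 570 in COV362, 314 in OVTOKO and 309 in SK-OV-3. In IGROV-1 it was at 263 and 1041 CPM on the PromethION and at 244 and 1080 on the MinION. The replicates 2 lay within the range of the other lines and the replicates 1 somewhat under its lowest value, while KRT8 was far under that of every other line. In CPM, KRT18 stood at 0.754 to 2.64 times KRT8 in the 6 other lines and at 40.6 to 202 times in IGROV-1, with no overlap. Per kilobase, KRT18 was at 0.925 to 3.27 times KRT8 in the 6 lines and at 59.8 to 280 times in IGROV-1. With KRT8-217 left out of KRT8, KRT18 was at 123 to 404 times KRT8 in CPM in the IGROV-1 libraries, beside 40.6 to 202 times with it, and at 0.766 to 3.34 times in the 6 lines. Over all 9 genes the type I sum per kilobase was 0.920 to 3.13 times the type II sum in the 6 lines and 86.2 to 305 times in IGROV-1. The highest type II level in an IGROV-1 library was the 11.4 CPM of KRT8.

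**Figure D3:**
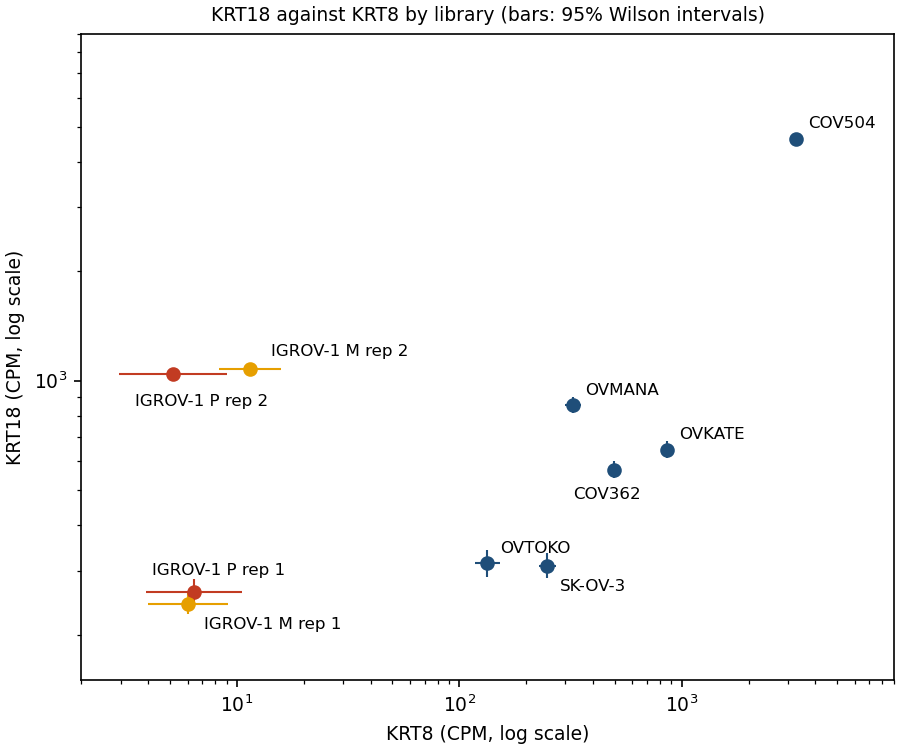
KRT18 against KRT8 in the 10 libraries, both in CPM on log axes, with 95% Wilson intervals for counting error; blue points are the 6 lines with 1 library, red and orange the IGROV-1 libraries from the PromethION (P) and the MinION (M). IGROV-1 lies at 5.15 to 11.4 CPM of KRT8 with the replicates 1 at 244 and 263 CPM of KRT18 and the replicates 2 at 1041 and 1080.

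The 2 IGROV-1 replicates differed in KRT18 on both instruments. Replicate 2 was higher by a factor of 3.96 on the PromethION (2424 against 615 counts, exact counting interval 3.63 to 4.34) and 4.43 on the MinION (3494 against 893, 4.12 to 4.78). Of 7894 genes compared, 24 (0.304%) were at least 2-fold higher and 9 (0.114%) at least 2-fold lower in replicate 2 on both instruments, and KRT18 was the only gene (0.0127%) at or above its own ratios on both. The ratio was 1.26 and 1.15 for KRT19, and 0.804 (0.344 to 1.84) and 1.91 (1.09 to 3.39) for KRT8. Summed fibroblast markers also differed, at 7.26 and 23.6 CPM on the PromethION and 4.91 and 24.1 on the MinION, mainly through the collagen gene COL1A1 (6.41 and 22.8; 4.91 and 22.9). Summed endothelial markers were at 1.28 and 7.30 CPM on the PromethION and 2.18 and 7.11 on the MinION, mainly through the endothelial cadherin CDH5 (0.854 and 6.87; 1.64 and 6.80). The part of either in the KRT18 difference was not tested.

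The replicate difference was seen in KRT18-201, the main KRT18 message, which held at least 94.4% of the gene's counts in every library. KRT18-201 begins at chr12:52948964, in the exon that also holds the start codon, and KRT18-202 begins further upstream with a separate noncoding exon of 68 bases (chr12:52948871-52948938); the coding exons of both are the same, so only reads that reach the 5′ end tell them apart. KRT18-201 had 585 and 2393 counts on the PromethION, a ratio of 4.11 (3.76 to 4.51), and 843 and 3432 on the MinION, a ratio of 4.61 (4.28 to 4.98). KRT18-202, a minor message, had 30 and 30 counts on the PromethION (ratio 1.01, 0.586 to 1.73) and 50 and 62 on the MinION (1.41, 0.952 to 2.08). These intervals lie under those of KRT18-201 but do not show that KRT18-202 was unchanged. Across all 10 libraries KRT18-202 ranged from 2.54 to 19.2 CPM and KRT18-201 from 230 to 4616. KRT18-202 held 0.221% of the KRT18 counts in COV504 and 3.83% in SK-OV-3, the extremes of the 6 lines, and 1.24% to 5.60% in IGROV-1.

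This spread limits what can be said of KRT18 between lines. Against the PromethION mean of 652 ± 550 CPM (SD, n = 2), KRT18 passed the test only in COV504, with a log2 difference of 2.75 (SE 0.80, adjusted p = 0.023, edgeR). That call was lost with DESeq2 (adjusted p = 0.18), with no filter on low counts (0.054) and without MinION replicate 1 (0.080) or 2 (0.058), and over all alternatives the adjusted p lay between 7.9e-38 and 0.18. In the other 5 lines the log2 difference lay between -1.31 and 0.45 with SEs of 0.82 to 0.90. Set against replicate 1 alone, KRT18 was higher in OVMANA (1.77), OVKATE (0.997) and COV362 (1.16), and set against replicate 2 alone it was lower in OVKATE (-0.996), OVTOKO (-1.65), SK-OV-3 (-1.98) and COV362 (-0.834). Those values passed the threshold in fits that had 1 residual degree of freedom and gave every gene the same spread, so their p-values leave out KRT18's own.

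**Figure D4:**
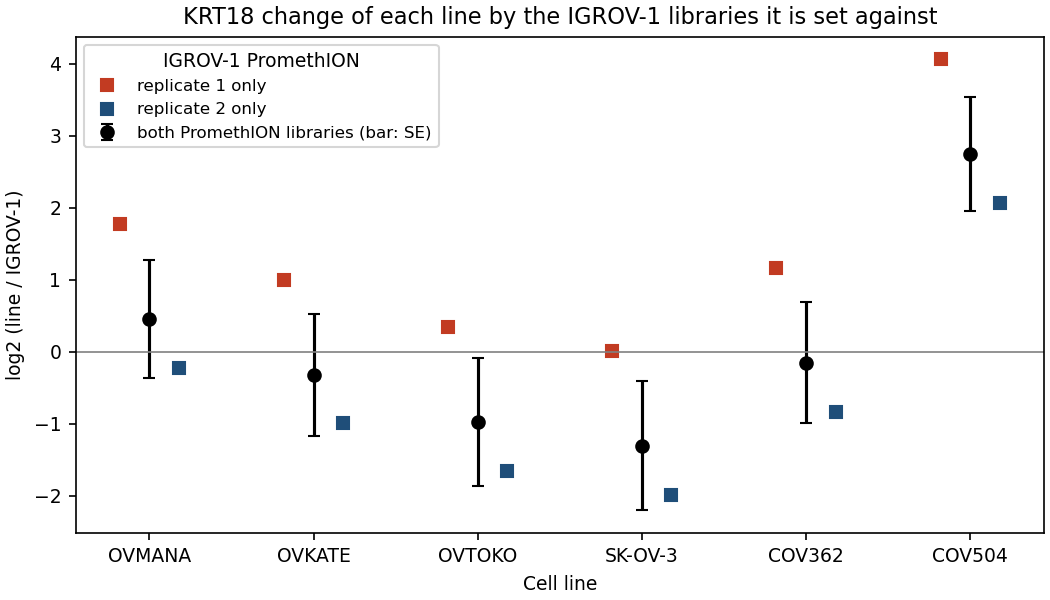
log2 difference in KRT18 of each line from IGROV-1, fitted with both IGROV-1 PromethION libraries (black, bar SE), with replicate 1 only (red) and with replicate 2 only (blue). OVKATE moves from 0.997 to -0.996 and COV362 from 1.16 to -0.834 with the replicate chosen, and COV504 is above 0 with either.

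KRT7, the ductal type II keratin, was at 1693 CPM in OVKATE, 858 in COV504, 751 in OVMANA, 420 in COV362, 363 in SK-OV-3 and 14.5 in OVTOKO. All 4 IGROV-1 libraries had 0 counts, which allows up to 0.643 CPM over both PromethION libraries. KRT7 thus passed the filter on low counts only through the other lines, so its calls against IGROV-1 are a description. KRT7 was called higher in all 6 lines, and it was at least 22.5-fold higher in OVTOKO (25 counts, adjusted p = 0.00057, edgeR), at least 565-fold in SK-OV-3, 653-fold in COV362, 1169-fold in OVMANA, 1336-fold in COV504 and 2636-fold in OVKATE, against 3 counts over the PromethION group. OVTOKO stood between these and IGROV-1, at a log2 difference of -4.34 from SK-OV-3 (SE 0.27, adjusted p = 0.00018, edgeR). A single transcript, KRT7-201, held all counts, and the antisense gene KRT7-AS had 5 counts, all in OVMANA.

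KRT19, the type I keratin that lacks the usual tail domain, was at 1833 CPM in OVMANA, 1506 in OVKATE, 466 in COV504, 223 in SK-OV-3, 136 in COV362 and 0.578 in OVTOKO (1 count). In IGROV-1 it was at 140 and 176 CPM on the PromethION and 154 and 177 on the MinION. OVTOKO stood apart, and the pooled IGROV-1 PromethION level was 273 times higher (exact counting interval 48.9 to 10813). Against the IGROV-1 mean of 158 ± 25.5 CPM (SD, n = 2), KRT19 was higher in OVMANA by 3.60 on the log2 scale (SE 0.17, adjusted p = 3.9e-06, edgeR), in OVKATE by 2.95 (SE 0.17) and in COV504 by 1.48 (SE 0.17). SK-OV-3 (0.27, SE 0.18) and COV362 (-0.17, SE 0.19) did not pass. IGROV-1 thus held KRT19 within the range of the other lines, unlike KRT7 and KRT8.

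KRT80, a type II keratin known from many epithelia, was at 179 CPM in OVKATE, 78.0 in OVTOKO, 44.0 in COV504, 41.5 in SK-OV-3 and 34.9 in COV362. It was at 0.534 CPM in OVMANA (1 count) and at 1.28, 0.859, 1.91 and 2.16 CPM in IGROV-1. OVMANA and IGROV-1 were thus the low lines. The other 5 were called higher than IGROV-1, by 4.98 (SK-OV-3, SE 0.36) to 7.01 (OVKATE, SE 0.29) on the log2 scale. KRT80 passed the filter on low counts only through these 5 lines, so the calls are a description. The counts were divided between the messages shown above. KRT80-201 had the same share of 49.8% in OVMANA, both IGROV-1 PromethION libraries and MinION replicate 2, with 1, 3, 2 and 7 counts of the gene. A fixed split of reads that do not tell the messages apart was not tested. Shares near that value, and their intervals for counting error, are therefore not a measure of message use. KRT80-202 held 56.2% in OVKATE, 49.5% in OVTOKO, 64.8% in SK-OV-3, 58.2% in COV362 and 57.7% in COV504. The share was lowest in OVTOKO (95% Wilson interval 41.2% to 57.8%) and highest in SK-OV-3 (54.0% to 74.3%), and these intervals overlapped.

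The basal keratins KRT5 and KRT17 were both highest in COV504, SK-OV-3 and OVKATE. KRT5 had 82.8 CPM in COV504, 49.1 in SK-OV-3 and 10.4 in OVKATE, and 0 counts in every other library. It was at least 129-fold, 76.5-fold and 16.2-fold higher there than in IGROV-1, and called higher in each, though it passed the filter on low counts only through these lines and the calls are a description. KRT17, which is induced in stressed and stratified epithelium, was at 29.2 CPM in OVKATE (59 counts), 15.6 in COV504 (35) and 7.09 in SK-OV-3 (14), and had 0 to 2 counts in each other library. Against 1 count over both IGROV-1 PromethION libraries the ratio was 136 (exact counting interval 23.5 to 5472) in OVKATE, 72.7 (12.2 to 2953) in COV504 and 33.1 (5.04 to 1400) in SK-OV-3. With DESeq2 the KRT17 call was lost in COV504 (adjusted p = 0.062) and SK-OV-3 (0.19); over all alternatives the adjusted p reached from 3.4e-08 in the former and 0.00033 in the latter to these values.

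KRT23 and KRT81 each belonged mainly to 1 line. KRT23, a type I keratin, had 209 counts (103 CPM) in OVKATE and 0 to 2 counts elsewhere, a ratio to the single IGROV-1 PromethION count of 483 (85.7 to 19154). KRT81, a hair keratin, had 75 counts (38.0 CPM) in SK-OV-3, 4 in OVTOKO, 1 each in OVKATE and COV362 and 0 in the other libraries. It was at least 59.1-fold higher in SK-OV-3 and at least 3.60-fold in OVTOKO than in IGROV-1. The OVTOKO call rests on 4 counts (adjusted p = 0.049, edgeR) and was lost in 7 alternatives, with adjusted p from 0.039 to 0.33 over all of them. KRT86, the near copy of KRT81, was instead highest in OVTOKO, with 29 counts (16.8 CPM), beside 1.01 CPM in SK-OV-3, and KRT83 in OVMANA, with 23 counts (12.3 CPM).

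All 9 keratins were among the 13030 genes tested between lines. KRT7, KRT17, KRT5, KRT23, KRT80 and KRT81 entered only through lines in which they are high, so the counts that follow are a description. In OVMANA 3 members were higher than in IGROV-1 (KRT7, KRT8 and KRT19) and 0 lower, where 35.4% of all genes were called (18.9% higher and 16.5% lower). In OVKATE 7 were higher (all but KRT18 and KRT81), where 49.2% of genes were called (26.8% higher and 22.4% lower). In OVTOKO 4 were higher (KRT7, KRT8, KRT80 and KRT81) and KRT19 was lower, where 34.1% were called (18.2% higher and 15.9% lower). In SK-OV-3 6 were higher (KRT7, KRT8, KRT17, KRT5, KRT80 and KRT81), where 41.8% were called (22% higher and 19.8% lower). In COV362 3 were higher (KRT7, KRT8 and KRT80), where 42.5% were called (23.7% higher and 18.8% lower). In COV504 7 were higher (all but KRT23 and KRT81), where 43.5% were called (24% higher and 19.6% lower). These 6 comparisons share the IGROV-1 libraries, so they are not independent of each other. The median fitted log2 difference over all 9 members was 0 in OVMANA, 6.90 in OVKATE, 0 in OVTOKO, 4.98 in SK-OV-3, 1.70 in COV362 and 5.22 in COV504, where the fitted values of genes at 0 depend on the prior count. The median over all genes tested was between -0.01 and 0.04. A second median set genes at 0 in IGROV-1 at their lower bound and left out members with at most 3 counts in both the line and IGROV-1. Over the 5 to 8 members that remain it was 3.6, 6.69, 3.17, 5.09, 5.003 and 5.81 in that order of lines. That rule keeps KRT17, KRT5, KRT23 and KRT81 only where the line is higher. The second median is therefore not set against that of all genes.

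Neighbouring lines in the order of each keratin were also compared. Beside the shares against IGROV-1 above, the share of all genes called was 34.5% for OVKATE against COV504, 33.2% against COV362, 40.4% against OVTOKO and 38.5% against both SK-OV-3 and OVMANA. With OVMANA it was 36.5% for COV362, 33.6% for COV504, 34.3% for SK-OV-3 and 24.9% for OVTOKO, and with OVTOKO it was 34.9% for COV362, 31.3% for COV504 and 26.7% for SK-OV-3. SK-OV-3 differed in 35.4% from COV362 and in 29% from COV504, and the last pair, COV362 and COV504, in 25.2%. For KRT7, 4 of 6 neighbouring steps passed: OVKATE over COV504, OVMANA over COV362, SK-OV-3 over OVTOKO and OVTOKO over IGROV-1. COV504 and OVMANA did not pass, nor did COV362 and SK-OV-3. For KRT8, 2 of 6 passed (5 at an unadjusted p under 0.05), COV504 over OVKATE (log2 difference 2.16, SE 0.24) and OVTOKO over IGROV-1, and the steps between OVKATE, COV362, OVMANA, SK-OV-3 and OVTOKO did not, at 0.44 to 0.68 each. Lines further apart in that order did differ in KRT8, such as OVMANA against OVKATE (-1.035, SE 0.24, adjusted p = 0.011, edgeR) and OVKATE against OVTOKO (2.30, SE 0.26), and 17 of all 21 pairs of lines passed. For KRT18, 0 of 6 passed with edgeR (1 at an unadjusted p under 0.05, and 0 with DESeq2), including COV504 over OVMANA at 2.29 (SE 0.998). Of all 21 pairs 4 passed for KRT18, those of COV504 over IGROV-1, OVKATE (adjusted p = 0.049, edgeR), OVTOKO (0.030) and SK-OV-3 (0.025). For KRT19, 4 of 6 passed, and SK-OV-3, IGROV-1 and COV362 were the neighbours that did not. The number was 3 for KRT80 and KRT5 and 1 for KRT17, KRT23 and KRT81. Without MinION replicate 1, the steps that passed were 2 for KRT7, 2 for KRT19, 1 for KRT5 and 0 for KRT17 and KRT81, and without MinION replicate 2 the number was 0 for KRT17.

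Members followed each other in part. On log2(CPM + 1) over the 7 lines, KRT8 and KRT18 had r = 0.52, and r = 0.91 over the 6 lines without IGROV-1. KRT7 and KRT19 had r = 0.57 with IGROV-1 and 0.97 without it, and KRT7 and KRT8 had 0.91 with it and 0.68 without. These are descriptions over 7 points that share libraries and depth.

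The instruments were compared within IGROV-1. Of the 3 keratins tested, KRT18, KRT19 and KRT8, 0 were called with edgeR, 0 with DESeq2 and 0 at an unadjusted p under 0.05, where 0.817% of 10041 genes were called. These were 82 genes, a number that moved with the setting and with single libraries. With the replicate number as a block, 1979 genes and 0 keratins were called, though the labels do not say what a number stands for. Leaving out the first or second replicate on the PromethION gave 209 or 35 genes, and on the MinION 8 or 4, with 0 keratins called each time. The log2 difference, MinION minus PromethION, was -0.04 (SE 0.67) for KRT18, 0.02 (SE 0.14) for KRT19 and 0.53 (SE 0.39) for KRT8. Of 4 keratin transcripts tested 0 were called with edgeR, 0 with DESeq2 and 0 at an unadjusted p under 0.05, where 2.29% of 14023 transcripts were called. Without PromethION replicate 1 the number was 1, KRT18-201. Transcript usage could be tested for KRT18 only and was not called (adjusted p = 1.00, unadjusted 0.99, edgeR; it was not tested with DESeq2), where 5.98% of 2979 genes were.

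Of the 56 other genes named KRT with a number and at most 1 letter, 7 reached 10 CPM in a library. Pseudogenes with names ending in P, such as KRT41P, are counted in the 56 but not among the 7. KRT10, a type I keratin of suprabasal epidermis, was at 126 to 341 CPM in all 10 libraries, with the highest level in SK-OV-3. KRT4, a type II keratin of mucosal epithelium, was at 178 CPM in COV504, 125 in OVKATE and 68.2 in COV362, and at 0 in the other libraries. KRT15 was at 38.7 CPM in COV504 and 17.6 in OVMANA, KRT13 at 18.7 and KRT27 at 16.0 in OVMANA, and KRT83 and KRT86 have been given above. Processed copies of KRT8 and KRT18 are spread over the genome, and the annotation names 50 of KRT8 and 67 of KRT18. Over the stretch that aligned with the parent gene, the KRT8 copies had 76.2% to 97.1% identity (median 89.6%). The KRT18 copies had 81.8% to 95.2% (median 90.4%). That stretch could be short, at 117 aligned positions for KRT18P53 and 156 for KRT18P55, a copy of 662 bases. These values therefore do not cover the whole of every copy. The KRT8 and KRT18 copies were given 2 and 1 counts in all 10 libraries together, so adding them changes no level of KRT8 or KRT18.

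Genes that work with keratins were read from lists, whose counts stand beside the shares of all genes called given above (18.2% to 26.8% higher and 15.9% to 22.4% lower). Genes at 0 in both IGROV-1 PromethION libraries entered the test only through lines in which they are higher, so the list counts are a description. Such genes include ITGB4, LAMB3 and EVPL here, PKP1 and DSC3 among the desmosome genes, and TGM2 and INA further below. The next list holds 11 plakins and hemidesmosome genes, and hemidesmosomes tie keratin filaments to the basement membrane. In COV504 11 were higher than in IGROV-1 and 0 lower. In each of OVMANA, COV362 and SK-OV-3 9 were higher and 1 lower, and in each of OVKATE and OVTOKO 8 were higher and 1 lower. The median log2 difference of the list lay between 2.45 and 5.45, and that of all genes near 0. The integrin chain ITGB4 was at 18.8 (COV362) to 296 CPM (OVTOKO) in the 6 lines and at 0 in all IGROV-1 libraries. The laminin chain LAMB3 was at 10.6 (COV362) to 178 CPM (SK-OV-3) and also at 0 in IGROV-1. Plectin (PLEC) was higher in all 6 lines, and COL17A1 was lower in COV362, OVKATE, OVTOKO and SK-OV-3.

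Of the desmosome genes, which anchor keratin between cells, 9 of 10 were tested. The numbers higher and lower than in IGROV-1 were 7 and 0 in OVKATE, 6 and 0 in COV504, 4 and 2 in COV362, 2 and 1 in OVMANA, and 5 and 2 in both OVTOKO and SK-OV-3. In OVMANA this is near the shares of all genes, 18.9% higher and 16.5% lower. PKP3, a plakophilin, was higher in all 6 lines, by 2.06 (SK-OV-3) to 4.8 (OVMANA) on the log2 scale. DSC2, a desmosomal cadherin, was at 289 CPM in OVKATE, 8.10 to 20.8 in COV362, COV504, OVTOKO and SK-OV-3, and 0 in OVMANA. PKP2 was at 9.62 to 50.0 CPM in 5 of the lines and at 19.8 to 35.8 in IGROV-1, and at 0 in OVTOKO, the line with 1 count of KRT19.

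Of 16 epithelial transcription and splicing factors 13 were tested, and those higher and lower were 9 and 1 in OVKATE, 7 and 1 in COV504, 5 and 1 in OVMANA, 5 and 3 in COV362, 1 and 2 in SK-OV-3 and 1 and 0 in OVTOKO. In SK-OV-3 and OVTOKO these are under the shares of all genes (22% higher and 19.8% lower, and 18.2% and 15.9%). GRHL2, TFAP2C, ESRP1 and EHF, at 0 in both IGROV-1 PromethION libraries, are among those higher in OVKATE and COV504. ESRP1, an epithelial splicing regulator, was at 87.1 CPM in OVMANA, 84.1 in OVKATE, 24.9 in COV504 and 5.09 in COV362, and at 0 in OVTOKO, SK-OV-3 and IGROV-1. EHF, an epithelial ETS factor, was at 37.1 CPM in OVKATE and 25.8 in COV504 and at 0 in OVTOKO and IGROV-1. TFAP2A went the other way, at 100 to 135 CPM in IGROV-1, 139 in OVTOKO and 1.48 in OVKATE.

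Of 12 genes of keratin binding and turnover, 2 (SK-OV-3) to 7 (OVKATE) were higher and 0 to 3 lower. The 2 and 3 in SK-OV-3 and the 3 and 3 in OVTOKO are near the shares of all genes. TGM2, a transglutaminase, was at 91.2 to 648 CPM in the 6 lines and at 0 to 0.618 in IGROV-1. SFN, the 14-3-3 protein of epithelia, was higher in 5 lines, at 68.2 to 273 CPM, and at 43.1 in SK-OV-3 and 12.5 to 40.9 in IGROV-1. EPPK1 (epiplakin) was at 25.7 CPM in OVKATE and 11.8 in OVMANA and at most 3.56 elsewhere. Of 15 other intermediate filament genes 8 were tested, with 2 or 3 higher and 2 or 3 lower in each line. Vimentin (VIM), the mesenchymal filament, was at 5964 CPM in SK-OV-3, 3663 in OVTOKO, 2637 in COV362, 870 in OVMANA, 808 in COV504 and 351 in OVKATE, beside 457 to 645 in IGROV-1. It was lower than in IGROV-1 only in OVKATE (log2 difference -0.76, adjusted p = 0.0064, edgeR). INA, a neuronal filament, was at 54.3 CPM in OVTOKO and 20.8 in OVMANA, and nestin (NES) at 87.0 in OVKATE and 27.5 to 43.6 in IGROV-1.

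Among 11296 genes that reached 10 CPM in a library, those whose log2(CPM + 1) most resembled each keratin over the 7 lines were named as a description, the highest of many correlations over 7 points. For KRT7 they were DRAP1 (r = 0.98), LTBP3 (0.97) and SMARCA2 (0.96), and for KRT8 they were DLG3 (0.99), SLC35A2 (0.97) and the interferon-induced IFI27 (0.96), which ran from 1.93 CPM in IGROV-1 to 2144 in COV504. For KRT18 they were HECTD4 (0.98), BRI3 (0.95) and LRRC38 (0.94), the last of which had 29.8 CPM in COV504 and 0 to 1.60 elsewhere. For KRT19 they were VPS11 (0.99), LBH (0.99) and FARSB (0.97), of which LBH fell from 168 CPM in OVKATE to 1.73 in OVTOKO. KRT17 was followed by COG1, FAM43A and ATP6V0B (0.98 to 0.99), KRT5 by PIBF1, HRAS and PLAUR (0.96 to 0.99), and KRT80 by IL15, NFIB and TMEM134 (0.98 to 0.99). For KRT23 (NWD1, LINC01018 and NOXO1) and KRT81 (DPYSL4, ADTRP and RBP4) the likeness comes from a single high line, OVKATE and SK-OV-3.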

How the data were processed

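The values the authors deposited are, per transcript and library, an estimated count and a TPM; this deposited TPM equalled the transcript's CPM to within 5.6e-11 and is not divided by length. Per the submitters' processing notes minimap2 2.24-r1122 and GRCh38 were used. Per the labels' protocols total RNA was prepared with a ligation kit and an end-repair step of 30 min. Of the quantification tool, its settings, strand use and read filters, nothing is given in the sources used here. Counts were summed per gene name. Each gene's sums were whole, and transcript estimates were rounded for count tests. Annotation and sequences are from GENCODE 29; no protein sequence was used.

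Differences were tested with edgeR 4.0.16 in R 4.3.3 (quasi-likelihood test, TMM, default expression filter by group, two-sided, Benjamini-Hochberg over all features tested, calls at an adjusted p under 0.05). Lines were compared in a fit of all 10 libraries with 2 residual degrees of freedom, which come from IGROV-1 alone: each other line's single library is assumed to vary like it. SEs were derived from F and the fold change. Instruments were compared over the 4 IGROV-1 libraries, for genes, transcripts and transcript usage. Fits were tested on simulated data. Alternatives were DESeq2 1.42.0, its size factors, no filter, a mean of at least 10 CPM, PromethION libraries only, all libraries for instruments, mitochondrial ribosomal RNA or joined genes left out, the replicate number as a block, each IGROV-1 library left out and, added later, KRT8-217 left out.

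Named genes are the 9 members, other keratins and pseudogenes reaching 10 CPM, up to 3 genes per list with the widest log2(CPM + 1) range, the 3 genes most like each keratin, and transcripts with at least 5% of a keratin's counts in a library with at least 100. EPCAM, CDH1, CLDN7, PTPRC, CD68, COL1A1, COL1A2, MSLN, CDH5, PLEC, COL17A1 and KRT7-AS were chosen after their values were seen. The members and lists were chosen with earlier results of these data known. A gene that the naming rule selects is not reported here.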

Additional observations from a re-analysis of the deposited data

How the results depend on the processing

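The numbers of keratins called per line and between instruments stayed within 1.5 times the reported number in all 83 combinations of a comparison and an alternative setting. These combinations share libraries and settings, so they are not independent checks. Of the log2 differences between lines or instruments, 648 stayed called in the same direction or stayed uncalled, 13 lost the call, 5 gained one and 2 were called in the other direction. The latter were KRT18 without IGROV-1 PromethION replicate 2, at 0.997 in OVKATE (reported value -0.32) and 1.16 in COV362 (-0.15). Without PromethION replicate 1 they were -0.996 and -0.834. Keratin transcripts called between instruments ranged from 0 to 1 when each library was left out, with 1 only without PromethION replicate 1.

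DESeq2 called 1442 genes in OVMANA (edgeR 4613), 2095 in OVKATE (6405), 1298 in OVTOKO (4443), 1672 in SK-OV-3 (5446), 1565 in COV362 (5544) and 1764 in COV504 (5672), but 3, 7, 4, 5, 3 and 5 keratins. Without MinION replicate 1, 2890 genes were called in OVTOKO. Neighbouring steps that passed with DESeq2 were 2 for KRT7, 1 for KRT80 and 0 for KRT17, KRT5 and KRT81; for KRT17 they were also 0 with no filter, with PromethION libraries only and without mitochondrial ribosomal RNA; for KRT18 they were 3 or 4 without PromethION replicate 1 or 2.

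Between instruments the genes called were 82, and 15 with no filter, 49 with all 10 libraries in the fit and 4 to 209 with each library left out. Transcripts called were 321, and 17, 138 and 0 to 675. Genes called for usage were 178, 115 at a mean of at least 10 CPM, and 38 to 61. Same-numbered IGROV-1 libraries deviated together (r = 0.49 over 7894 genes), but the labels do not say what a number stands for. With the replicate block, 1979 genes and 2291 transcripts were called, and 0 keratins, 0 keratin transcripts and 0 keratins for usage; KRT18 was at -0.06 on the log2 scale (adjusted p = 0.61, edgeR).

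Depth limits KRT17, KRT81 and the IGROV-1 level of KRT8, which rest on a few counts, and the single library of each other line gives no spread of its own.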
